A study of Mus musculus with 4 samples.

Results

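The lung-labelled P1 library, named so because its tissue label is in doubt, was compared with lung P2, that is the CD31-positive against the PDGFRa-positive population sorted under a lung label. Cell barcodes entered with 1000 or more UMIs (unique molecular identifiers, each standing for 1 captured RNA molecule), 500 or more genes and no more than 10% mitochondrial UMIs. This kept 652 of 1305 deposited barcodes in the lung-labelled P1 library and 1436 of 2860 in lung P2, together 2088 of the 11934 kept barcodes of the series. The study sorted vessel progenitor cells of C57BL/6 mice from fat and lung and made 1 droplet library (10x Genomics, 3' end of transcripts) for each tissue and population. Every sort took CD45-, Ter119- and Tie2+ cells. P1 was further PDGFRa-, CD31+, CD105high and Sca1low, and P2 was PDGFRa+, CD31-, CD105low and Sca1high. Age, sex, number and pooling of the mice are not given in the sources used here. With 1 library on each side, every difference below describes these libraries, no statistical test was run, and intervals cover counting error only.

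CD31 and CD105 are surface proteins of endothelium, the cell layer that lines blood and lymph vessels, and PDGFRa marks fibroblasts, the cells that build connective tissue matrix. Capillaries of adipose tissue take up fatty acids that lipoprotein lipase frees from blood lipids, and Fabp4 and Gpihbp1 belong to that equipment. Lung capillaries contain general capillary cells and aerocytes, the flat cells of gas exchange, and the lung wall holds alveolar fibroblasts beside the surfactant-producing epithelium.

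Both lung libraries have features that bear on every result. The lung-labelled P1 library held 12379 CPM (a gene's UMIs scaled to a library total of 1000000) of Fabp4 and no UMI of Sftpc, the surfactant protein gene of lung epithelium, whereas the fat-labelled P1 library held 94.2 and 738 CPM. Foxf1, a transcription factor gene of lung vessels and mesenchyme, stood at 3.58 CPM in the lung-labelled P1 library and 716 CPM in the one labelled fat P1. The tissue word on both P1 libraries is therefore used as a label only, and values with the fat-labelled P1 library set against lung P2 are given beside the main ones. These 2 comparisons share lung P2. Summed UMIs were 1118642 and 3880015 in the lung pair, 6510236 in the fat-labelled P1 library and 43599072 in fat P2, with medians of 1561, 2150, 2964 and 5151.5 UMIs per kept barcode. The median mitochondrial share of kept barcodes was 5.92% in the lung-labelled P1 library and 4.03% in lung P2. The lung-labelled P1 library shared 54 deposited barcode sequences with fat P2, 20 with the fat-labelled P1 library and 4 with lung P2. Among kept barcodes the only match was 1 with fat P2.

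In most genes, barcodes of the lung-labelled P1 library differed little more than random draws from their sum. Each barcode was thinned to 1000 UMIs drawn at random, and the variance of each gene over barcodes was divided by that of binomial draws from the summed library, so that a ratio of 1 means no more difference than drawing gives. The median ratio over 1547 genes was 1.007 in the lung-labelled P1 library, with 4 genes above 1.5 (Gm42418, Malat1, AY036118 and Cxcl12). In lung P2 it was 1.092 over 1698 genes, with 153 genes (9.01%) above 1.5, led by Sftpc, Gm42418 and Ager. The libraries labelled fat P1 and fat P2 had medians of 1.067 and 1.046 and 4.92% and 8.43% of genes above 1.5. Thinned to 2000 UMIs, which 164 barcodes of the lung-labelled P1 library allow, 60 of its 3249 genes (1.85%) lay above 1.5. Car3, Cfd, Klf4, Jun and Fos were among those above 2. In lung P2 the share above 1.5 was then 10.35%.

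The same contrast appeared in marker genes. Summed UMIs of 12 endothelial markers ran from 2 to 23 per thinned barcode in the lung-labelled P1 library (median 10.5, variance ratio 1.09). In lung P2 they averaged 0.256 and reached 25 in single barcodes (variance ratio 14.5), so a few barcodes carried nearly all of them. Summed fibroblast markers averaged 1.45 with a highest value of 7 in the lung-labelled P1 library (ratio 1.12), and 14.7 with a highest value of 147 in lung P2 (ratio 10.6). At least 3 UMIs of both marker sets were found in 119 of 652 barcodes labelled lung P1, or 18.3% (exact Clopper-Pearson 95% interval 15.4 to 21.4), and in 3 of 1436 lung P2 barcodes, or 0.209% (0.0431 to 0.609). The share was 0.308% in the fat-labelled P1 library and 0.127% in fat P2. It depends on depth and on the limit: thinned to 2000 UMIs it was 58.5% in the lung-labelled P1 library and 1.03% in lung P2, and with 5 UMIs of each set it was 1.99% in the lung-labelled P1 library. The shares of cell types in the lung-labelled P1 library are therefore not given, and its values are those of the summed RNA. Not all gene sets were this even there. Its summed immediate early and dissociation genes ran from 0 to 92 UMIs at 1000 UMIs (median 24, ratio 2.26). At 2000 UMIs their ratio was 7.80, beside 2.92 for adipose capillary, 2.28 for erythroid, 1.39 for endothelial and 1.21 for fibroblast genes. In lung P2 the immediate early ratio was 7.55 at 1000 and 15.5 at 2000 UMIs.

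**Figure D1:**
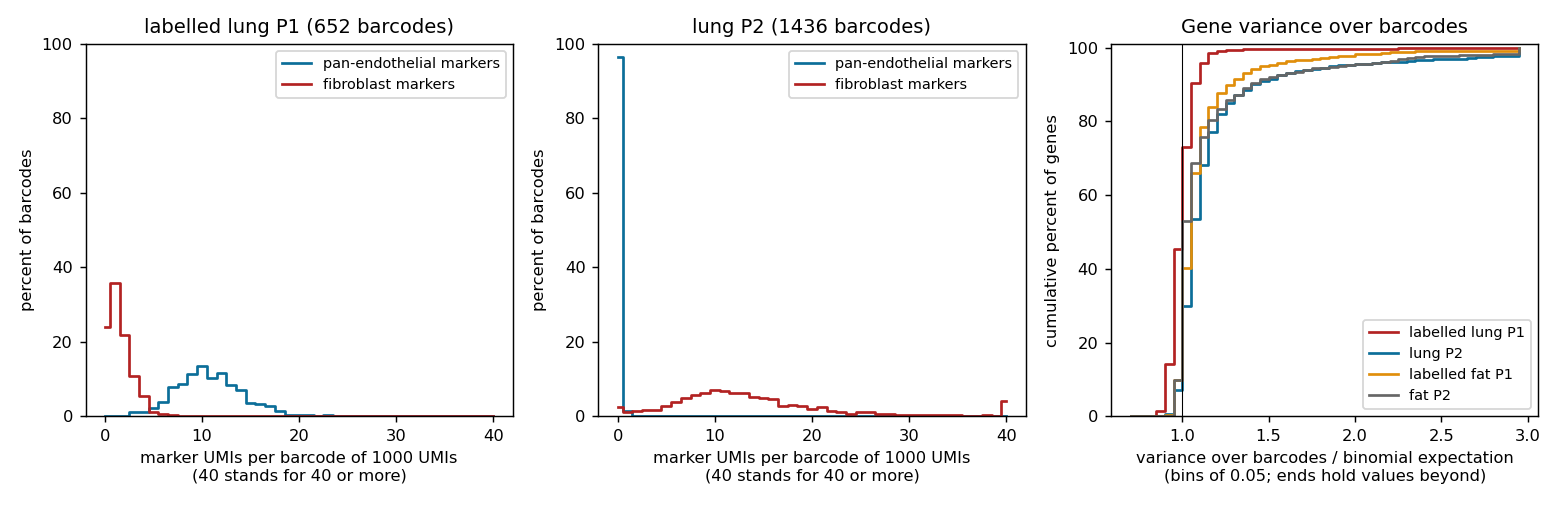
Marker UMIs per barcode after thinning to 1000 UMIs in the lung-labelled P1 library (left) and lung P2 (middle), as percent of barcodes, and the cumulative percent of genes against the variance ratio over barcodes in all 4 libraries (right). Endothelial markers form 1 hump between 2 and 23 UMIs in the lung-labelled P1 library and are at or near 0 in most lung P2 barcodes, and the curve of the lung-labelled P1 library rises closest to a ratio of 1.

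Of 4791 genes that reached 50 CPM in the lung-labelled P1 library or lung P2, 405 (8.45%) were at least 4-fold higher in the lung-labelled P1 library and 564 (11.8%) in lung P2, 20.2% in all. The 4-fold limit is a log2 ratio of 2 after adding 10 CPM to each level. By the same rule the fat-labelled P1 library set against lung P2 gave 8.9% and 10.3%, and the lung-labelled P1 library set against fat P2 gave 9.97% and 9.46%. Over all 8376 genes at 20 CPM or more the median log2 ratio was -0.16. Of these genes, 5.23% passed 4-fold in the lung-labelled P1 library and 7.39% in lung P2. These shares are the background for the list counts below. In sums over barcodes, fewer cells of a type and less RNA per cell cannot be told apart.

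The called genes were sorted by their levels in all 4 libraries. A population pattern means that both P1 libraries lie at least 4-fold above both P2 libraries, or the reverse. It held for 144 genes high in P1 (3.01% of the 4791) and 152 high in P2 (3.17%), 30.55% of the 969 called genes. A single-library pattern means that 1 of the 2 lung libraries lies at least 4-fold above or below the other 3 libraries. It took in 88 genes higher in the lung-labelled P1 library (1.84%) and 180 higher in lung P2 (3.76%). A crossed tissue pattern means that the lung-labelled P1 library goes with fat P2 and lung P2 with the fat-labelled P1 library, and it took in 21 genes (0.438%) and 19 genes (0.397%). The remaining 365 called genes (37.67%) met none of these rules. The 4 levels of a gene are given below in the order labelled lung P1, lung P2, labelled fat P1 and fat P2.

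**Figure D2:**
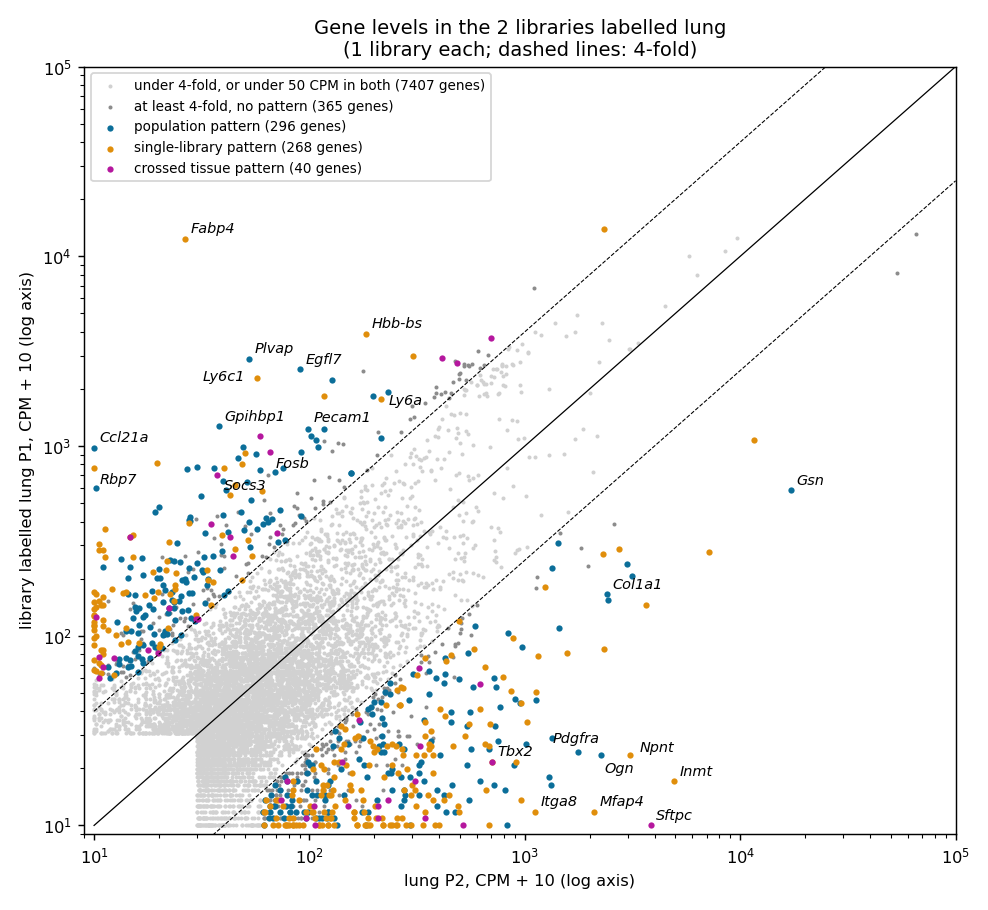
Level of each gene (CPM + 10, log axes) in lung P2 (horizontal) and in the lung-labelled P1 library (vertical), coloured by pattern, with dashed lines at 4-fold. Fabp4 lies at the top left with 12379 against 16.5 CPM, and Sftpc, Inmt and Mfap4 lie at the bottom right.

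RNA of the sort gate genes followed 3 of the 5 gate proteins that differ or are required. Pecam1, which encodes CD31, stood at 1223 CPM (95% Poisson interval 1159 to 1289) in the lung-labelled P1 library and 88.1 CPM (79.0 to 98.0) in lung P2. Eng, which encodes CD105, stood at 976 CPM (919 to 1036) and 99.2 CPM (89.6 to 110). Pdgfra stood at 14.3 CPM (8.18 to 23.2) and 1752 CPM (1711 to 1794). These 3 levels lie on the side of their gates.

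Sca1 and Tie2 did not follow in the same way. Ly6a, which encodes Sca1, stood at 1750 CPM (1674 to 1830) in the library gated as Sca1 low and 205 CPM (191 to 220) in lung P2, gated as Sca1 high. Tek, which encodes Tie2, was required in both gates and stood at 228 CPM (201 to 258) and 40.7 CPM (34.6 to 47.6). The 26 lung P2 barcodes with at least 3 endothelial UMIs, 1.81% of the library, held 95.03% of its Pecam1 UMIs, 72.8% of its Tek UMIs, 53.3% of its Ly6a UMIs and 52.7% of its Eng UMIs. The markers that chose these barcodes include Pecam1, so its share and its shift below follow in part from the choice. Tek, Ly6a and Eng are not among these markers. Without the 246 lung P2 barcodes that held 3 or more endothelial or epithelial UMIs, the log2 ratio moved from 2.23 to 3.38 for Tek, from 3.03 to 3.89 for Ly6a and from 3.65 to 6.36 for Pecam1. Ptprc, which encodes the excluded CD45, stood at 18.8 and 4.38 CPM.

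Genes of blood vessel endothelium were higher in the lung-labelled P1 library, as they were in the other P1 library. The 12 endothelial markers all passed the 4-fold limit (median log2 3.76), as did 5.23% of all genes at 20 CPM or more, and all 12 had the population pattern. Pecam1, which the sort selected, is among them. With the fat-labelled P1 library against lung P2, where 5.37% of genes passed in P1 and 6.81% in P2, all 12 passed again with a median of 4.15. The 10 genes of this pattern with the widest margins were Plvap, Egfl7, Gpihbp1, Ushbp1, Flt1, Esam, Sox18, Tie1, Robo4 and Srgn.

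Plvap, which forms the diaphragms of fenestrated and caveolar endothelium, stood at 2869, 42.5, 1430 and 20.6 CPM. Egfl7, a secreted protein gene of endothelium, stood at 2538, 80.4, 2222 and 2.0 CPM. Gpihbp1, which carries lipoprotein lipase to the capillary surface, stood at 1263, 27.8, 916 and 1.95 CPM. In all 3 the rule itself sets the lowest P1 level above the highest P2 level, and lung P2 lies above fat P2. In the mouse assembly GRCm38 (GENCODE vM21 annotation, protein-coding genes), Plvap (ENSMUSG00000034845) spans chromosome 8 from 71497765 to 71511752 and Egfl7 (ENSMUSG00000026921) chromosome 2 from 26580014 to 26593120. Summed over the 12 endothelial markers, the levels were 10920, 717, 17234 and 29.9 CPM, and 94.25% of the marker UMIs of lung P2 lay in its 26 endothelial barcodes. The same markers chose these barcodes, so this share follows in part from the choice.

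The junctions, receptors and transcription factors of endothelium followed. Over all genes at 20 CPM or more, 5.23% passed in the lung-labelled P1 library. Of 9 measured junction genes, 7 stood at least 4-fold higher in the lung-labelled P1 library (median log2 3.28), among them Cldn5, a tight junction gene (1121, 91.5, 3028 and 0.963 CPM), and Cdh5, the endothelial cadherin (918, 81.7, 2098 and 1.86 CPM). Tjp1 and Cgnl1 did not pass, with log2 ratios of 0.45 and -1.06. Of 13 angiogenic receptors 8 passed (median log2 2.23), and the 3 widest were Robo4, Flt1 and Tie1. Eng and Tek of the sort gate are among these 8, as Pecam1 is among the 7 junction genes. Flt1 and Kdr, both VEGF receptors, stood at 903, 46.4, 914 and 1.90 CPM and at 742, 49.0, 1308 and 13.5 CPM. The co-receptors Nrp1 and Nrp2 did not pass (log2 0.26 and -1.29), and lung P2 carried 539 and 297 CPM of them.

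Among 13 endothelial transcription factor genes 7 passed in the lung-labelled P1 library and 1 in lung P2 (median log2 2.06). The shares over all genes at 20 CPM or more were 5.23% and 7.39%. The SoxF genes Sox17 and Sox18 stood at 248, 6.70, 211 and 0.482 CPM and at 414, 17.8, 465 and 0.436 CPM, high in both P1 libraries. Nr2f2, which specifies venous fate in endothelium and is also expressed in mesenchyme, was the exception at 86.7, 870, 23.5 and 55.2 CPM, highest in lung P2. All 6 measured Gimap genes, a family of small GTPases of lymphocytes and endothelium, passed (median log2 2.76), with Gimap6 at 398, 17.5, 346 and 3.14 CPM.

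Some arterial and some venous genes were higher in the lung-labelled P1 library, where 5.23% of all genes at 20 CPM or more passed (7.39% in lung P2). Of 9 arterial genes 3 passed and 6 did not (median log2 1.65). Those that passed were Sox17, Dll4 and Gja4, a gap junction gene at 192, 9.54, 160 and 0.252 CPM. The arterial gap junction gene Gja5 stood at 59.9, 131, 24.9 and 0.115 CPM and did not pass. Of 8 venous and leukocyte adhesion genes 4 passed in the lung-labelled P1 library and 1, Nr2f2, in lung P2 (median log2 1.96). Selp, the P-selectin gene, stood at 51.8, 2.32, 1.84 and 0.252 CPM and was highest in the lung-labelled P1 library, while Vwf, a clotting factor carrier gene, stood at 422, 79.4, 262 and 0.596 CPM.

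Lymphatic genes were present as well. Of 6 measured lymphatic markers 4 passed in the lung-labelled P1 library, against 5.23% of all genes at 20 CPM or more. The median log2 was 2.31, or 3.97 with the 3 genes at 0 in lung P2 set at their lower bounds. Lyve1 and Pdpn did not pass, with log2 ratios of 0.58 and -0.96. Lyve1, Flt4 and Pdpn stood at 66.2, 65.3 and 16.1 CPM in the lung-labelled P1 library. They stood higher in the fat-labelled P1 library, at 689, 88.9 and 24.7 CPM. The reverse held for Ccl21a, Mmrn1 and Reln. Ccl21a, a lymphatic chemokine gene, stood at 969 CPM against 0 UMIs in lung P2, at least 1253-fold higher against a floor of 3 UMIs, and at 35.9 and 0.0229 CPM in the libraries labelled fat P1 and fat P2. It was found in 62.7% of thinned barcodes labelled lung P1 with a variance ratio of 1.16, so its UMIs were not gathered in a subset of barcodes. Prox1, the transcription factor gene that defines lymphatic endothelium, stood at 14.3 and 0.258 CPM, under the 20 CPM needed to be measured here. Ccl21a has near-identical gene copies, and the Ly6, Gimap, H2, Hspa1 and hemoglobin genes have close relatives, so the split of reads within these families is uncertain.

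Matrix and surface genes of fibroblasts were higher in lung P2. Of 12 fibroblast markers, with Pdgfra of the sort gate among them, 10 were at least 4-fold higher there (median log2 -3.39), against 7.39% of all genes at 20 CPM or more. Lum and Serpinf1 did not pass, with log2 ratios of -0.18 and -1.05. The widest margins of the population pattern belonged to Ogn, Pcolce2, Gsn, Loxl1, Lrp1, Gpc3, Dpep1, Abca8a, Col6a1 and Pdgfra.

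Ogn, a small proteoglycan of the matrix, stood at 13.4, 2238, 8.91 and 1083 CPM. Ogn (ENSMUSG00000021390) lies on chromosome 13 from 49608046 to 49624501. Gsn, an actin-severing protein gene, stood at 574, 17242, 131 and 21454 CPM. Loxl1, which cross-links elastin, stood at 17.9, 740, 3.23 and 754 CPM. By the rule both P2 libraries lie above both P1 libraries in each, and 2 of these 3 levels differ little between the P2 libraries. Dcn, a collagen-binding proteoglycan, differed between the P2 libraries instead, with 298, 1417, 2.76 and 13747 CPM. It was found in 14.6% of thinned lung P2 barcodes with a variance ratio of 11.7, so a minority of them carried it.

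The lung-labelled P1 library carried more fibroblast RNA than the one labelled fat P1. Its summed fibroblast markers stood at 1454 CPM against 129 CPM there, and at 16056 and 44158 CPM in lung P2 and fat P2. Dcn was found in 26.8% and Col1a1 in 13.5% of its thinned barcodes, against 0.359% and 0.308% of those labelled fat P1, and the variance ratios of 0.986 and 0.985 show no subset of barcodes with more. With the fat-labelled P1 library against lung P2, all 12 fibroblast markers passed and the median was -5.58. The part of this RNA in the smaller ratios was not tested.

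Of 20 interstitial matrix genes 18 stood at least 4-fold higher in lung P2 (median log2 -3.33), and 15 of the 20 had the population pattern. The fibrillar collagen genes Col1a1, Col1a2 and Col3a1 stood at 156 against 2400, 144 against 2416 and 230 against 2959 CPM. Fbln5, an elastic fibre gene, went the other way without passing (301 against 136 CPM). Complement genes followed the matrix, with 6 of 10 at least 4-fold higher in lung P2 (median log2 -2.44), against 7.39% of all genes. C3, the central complement component, stood at 76.9, 964, 2.46 and 3104 CPM, and Serping1, the C1 inhibitor gene, at 100, 1428, 11.4 and 2275 CPM. Cfd, a complement protease that adipocytes secrete in large amounts, was the exception at 79.6, 0, 0 and 1.12 CPM.

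**Figure D3:**
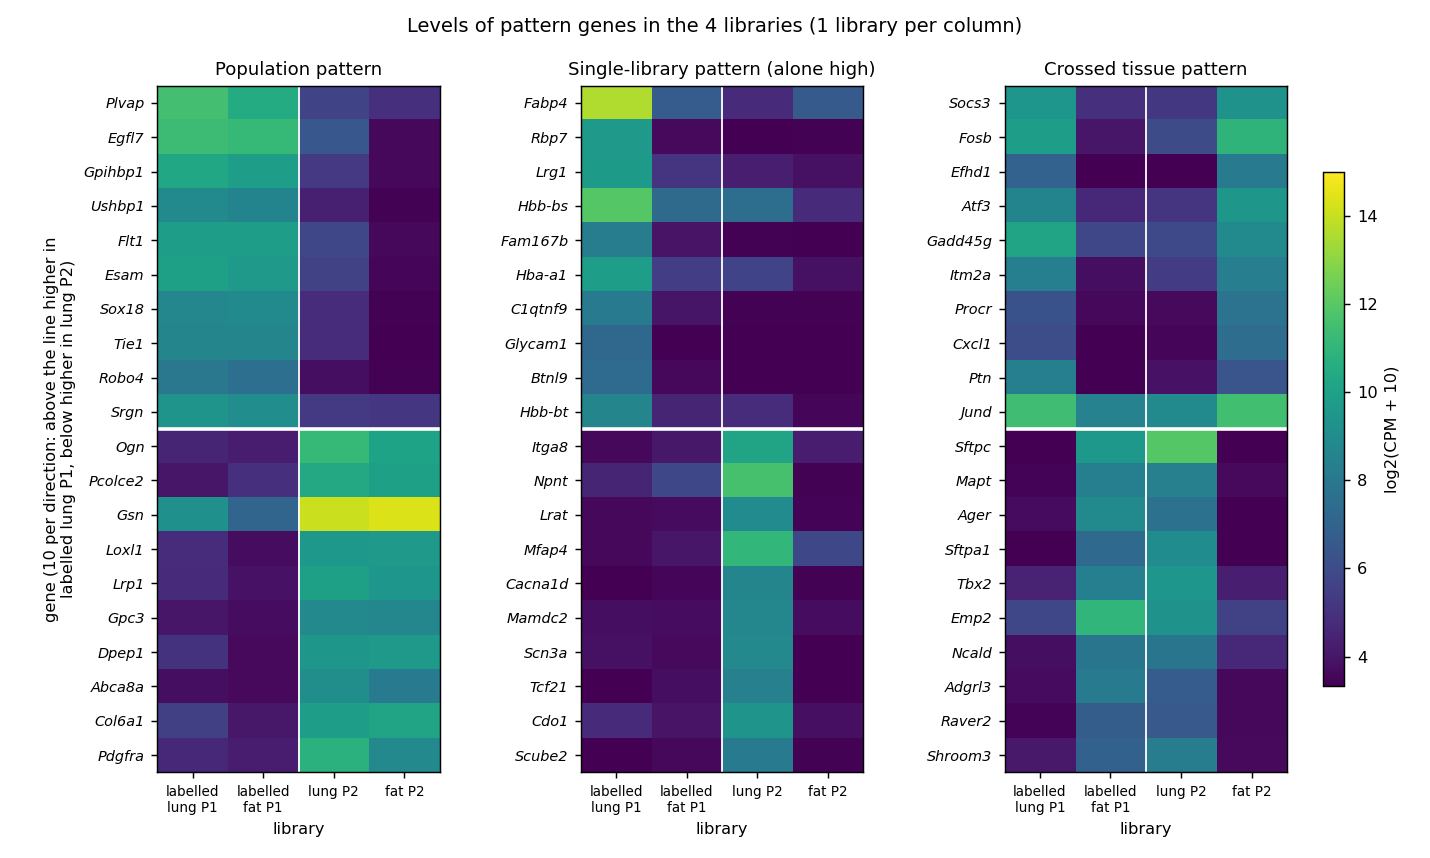
Levels, as log2 of CPM + 10, of the 10 genes with the widest margins in each direction of the population pattern (left), the single-library pattern of a library alone high (middle) and the crossed tissue pattern (right), 1 library per column (labelled lung P1, labelled fat P1, lung P2 and fat P2). Genes above the horizontal white line are higher in the lung-labelled P1 library and genes below it in lung P2. Each pattern's rule fixes which columns are bright.

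Genes of fat capillaries set the lung-labelled P1 library apart from all others. It alone was high for 79 called genes, and Fabp4, a cytosolic fatty acid carrier, led them with 12379, 16.5, 94.2 and 89.2 CPM. Rbp7, a retinol carrier gene of adipose vessels, stood at 757, 0, 2.15 and 0.482 CPM, at least 979-fold higher than in lung P2 against the floor of 3 UMIs. Lrg1, a secreted glycoprotein gene of vessels, stood at 805, 9.54, 25.0 and 4.31 CPM. Fabp4 (ENSMUSG00000062515) lies on chromosome 3 from 10204088 to 10208576 and Rbp7 (ENSMUSG00000028996) on chromosome 4 from 149449687 to 149454978, both protein-coding. The next 7 by margin were Hbb-bs, Fam167b, Hba-a1, C1qtnf9, Glycam1, Btnl9 and Hbb-bt.

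Of 12 genes of adipose capillaries and fatty acid uptake, 10 were at least 4-fold higher in the lung-labelled P1 library than in lung P2. Of all genes at 20 CPM or more, 5.23% passed. The median log2 was 3.77, or 4.17 with Rbp7 and Aqp7 at their lower bounds. The list was chosen with earlier results of these data known, and its member Fabp4 put the tissue label in doubt. These counts are therefore no independent support for a tissue of origin. With the fat-labelled P1 library in its place 3 passed and 1 passed the other way, and the median was 0.58. Against fat P2, where 6.32% of all genes passed in P1 and 5.91% in P2, the lung-labelled P1 library again passed for 10 of the 12 and fat P2 for 1, with a median of 4.78. The 3 genes that passed with either P1 library were Gpihbp1, Cd36, a fatty acid transporter gene (1218, 106, 2119 and 9.75 CPM), and Scarb1, a lipoprotein receptor gene (764, 20.1, 282 and 10.4 CPM).

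Tcf15, a transcription factor gene that partners Meox2 in fatty acid uptake by endothelium, stood at 149, 1.03, 4.45 and 0.895 CPM. Fabp5 stood at 544, 32.7, 26.4 and 13.4 CPM, and Timp4, a protease inhibitor gene, at 328, 5.15, 15.7 and 0.642 CPM. These 3 are high in the lung-labelled P1 library only. Meox2 itself stood at 123, 119, 2.76 and 20.5 CPM and Lpl, the lipase gene, at 133, 115, 338 and 1147 CPM, neither apart in the lung pair. Fabp4 was found in 99.8% of thinned barcodes labelled lung P1 (variance ratio 1.17), in 0.209% of lung P2 barcodes and in 0.667% of those labelled fat P1.

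RNA of erythroid genes, 3 keratin genes and Glycam1 was also high in the lung-labelled P1 library. Over all genes at 20 CPM or more, 5.23% passed there. All 4 measured erythroid genes passed (median log2 4.01), with Hbb-bs, a beta globin gene, at 3902, 174, 155 and 16.9 CPM. Hbb-bs was found in 95.7% of thinned barcodes labelled lung P1 and 19.4% of lung P2 barcodes (97.2% and 36.1% unthinned), with variance ratios of 1.13 and 1.06, so in both it lay evenly over barcodes. The difference rests on the barcode filter: over all deposited barcodes the log2 ratio of Hbb-bs was 0.38 in place of 4.41, and those of Hbb-bt and Hba-a2 were -0.85 and -0.017. The keratin genes Krt8, Krt18 and Krt19 passed too, with Krt18 at 211, 11.6, 12.1 and 30.7 CPM. They come from the epithelial list, of whose 9 measured members 5 passed in lung P2 instead. Glycam1, a mucin-like ligand gene of high endothelial venules and mammary gland, stood at 140 CPM against 0 UMIs in each of the other 3 libraries, at least 182-fold higher than in lung P2.

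Genes of lung alveolar fibroblasts set lung P2 apart, where 7.39% of all genes at 20 CPM or more passed. All 13 measured genes of that list were at least 4-fold higher in lung P2 (median log2 -5.02, or -6.51 with the 4 genes at 0 in the lung-labelled P1 library at their lower bounds), and 11 of them had lung P2 alone high. With the fat-labelled P1 library all 13 passed as well, with a median of -4.60. The list's summed levels were 120, 16149, 262 and 712 CPM.

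Inmt, which encodes a methyltransferase, stood at 7.15, 4929, 47.0 and 206 CPM. Npnt, a ligand of the integrin that Itga8 helps to form, stood at 13.4, 3081, 47.8 and 0.528 CPM. Itga8 itself stood at 1.79, 1107, 6.76 and 8.88 CPM, the first from 2 UMIs. By the single-library rule, the other 3 libraries hold far less of each. Inmt (ENSMUSG00000003477) lies on chromosome 6 from 55170626 to 55175043 and Itga8 (ENSMUSG00000026768) on chromosome 2 from 12106632 to 12301922. Inmt was found in 86.4% of thinned lung P2 barcodes and Npnt in 79.7%, against 0.767% and 1.07% of barcodes labelled lung P1.

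In all, 162 called genes had lung P2 alone high. The 10 with the widest margins were Itga8, Npnt, Lrat, Mfap4, Cacna1d, Mamdc2, Scn3a, Tcf21, Cdo1 and Scube2. Lrat, which makes retinyl esters for storage, stood at 1.79, 483, 2.76 and 0.757 CPM. Aldh1a1, which makes retinoic acid, stood at 0, 814, 11.2 and 82.6 CPM and was at least 304-fold higher in lung P2. Tcf21 and Tbx4, transcription factor genes of lung mesenchyme, stood at 0, 325, 3.38 and 0.229 CPM and at 0, 286, 3.84 and 0.229 CPM. Adventitial fibroblast genes passed for 6 of 9 (median log2 -2.50), against 7.39% of all genes at 20 CPM or more. In sum they were lower in lung P2 than in fat P2, at 2101 against 13929 CPM.

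In a few genes lung P2 was the library alone low. There were 9 such genes, among them Ly6c1, Slfn5, Ly6a, Klf2, Edn1, Anxa3 and Npr1. Ly6c1, a surface protein gene of capillaries and of some fibroblasts, stood at 2286, 46.9, 764 and 821 CPM. Ly6a stood at 1750, 205, 2423 and 1921 CPM, and Slfn5, an interferon-inducible gene, at 328, 29.1, 474 and 368 CPM. By the rule, lung P2 lies at least 4-fold below each of the other 3 libraries in these genes, fat P2 included, although fat P2 is below both P1 libraries in Klf2 and Npr1.

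The reverse, with the lung-labelled P1 library alone low, held for 18 genes. They were led by Scn7a, Abi3bp, Zeb2, Antxr1 and Lhfp. Scn7a, a sodium channel gene, stood at 5.36, 647, 1472 and 214 CPM. Zeb2, a transcription factor gene of mesenchyme, stood at 16.1, 672, 216 and 356 CPM. Sema3c, a guidance factor gene, stood at 4.47, 72.7, 1005 and 641 CPM. The fat-labelled P1 library is above lung P2 in Scn7a and Sema3c and below it in Zeb2.

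Some lung epithelial and aerocyte genes, 2 of 9 and 3 of 8 measured, had the crossed tissue pattern. Of 9 measured epithelial markers 5 were at least 4-fold higher in lung P2 and the 3 keratin genes in the lung-labelled P1 library (median log2 -2.44, or -4.03 with 4 genes at their lower bounds). Over all genes at 20 CPM or more these shares were 7.39% and 5.23%. Sftpc stood at 0, 3824, 738 and 0.138 CPM and was at least 1426-fold higher in lung P2. Sftpa1, another surfactant protein gene, stood at 0, 509, 149 and 0 CPM, and Ager, a receptor gene of alveolar type I cells, at 2.68, 197, 457 and 0.275 CPM. Sftpc (ENSMUSG00000022097) lies on chromosome 14 from 70520949 to 70524081. All 3 are present in lung P2 and in the fat-labelled P1 library, and at or near 0 in the other pair.

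Sftpc UMIs were spread and concentrated at once. After thinning, 61.3% of lung P2 barcodes held one (87.0% unthinned), while 81.5% of its UMIs lay in the top 5% of barcodes. None of 652 thinned barcodes labelled lung P1 held one, which allows a share of up to 0.460% (3 of 652, with a Clopper-Pearson upper bound of 0.564%), and in fat P2, the other fibroblast sort, 0.0127% did. The 229 lung P2 barcodes with 3 or more epithelial UMIs held 85.2% of its epithelial UMIs and 96.7% of its Ager UMIs. Ager and Sftpc are among the markers that chose these barcodes. These shares, and the shifts on leaving the barcodes out, therefore follow in part from the choice. Without barcodes of endothelial or epithelial markers the log2 ratio of Sftpc was -6.12 in place of -8.58 and that of Ager -0.33 in place of -4.03. The median of the epithelial list then turned to 2.50, and it was 0.11 when barcodes were limited to 5% mitochondrial UMIs.

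Of 8 measured aerocyte genes 5 stood at least 4-fold higher in lung P2 and 1 in the lung-labelled P1 library (median log2 -3.12). The shares over all genes at 20 CPM or more were 7.39% and 5.23%. Over the same 8 genes the fat-labelled P1 library had 4 at least 4-fold above lung P2, none below, and a median of 2.18. Hpgd, a prostaglandin-degrading enzyme gene, stood at 2.68, 141, 2499 and 18.2 CPM, and Emp2, a membrane protein gene, at 45.6, 611, 2054 and 38.0 CPM. Without the marker barcodes of lung P2 the log2 ratio of Hpgd was -0.78 in place of -3.58, whereas that of Emp2 was -3.22 in place of -3.48. Car4, the carbonic anhydrase gene of lung capillaries, stood at 83.1, 33.8, 969 and 0.573 CPM and did not pass in the lung pair.

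Transcription factors of lung mesenchyme behaved in 2 ways. Of 8 measured genes 7 stood at least 4-fold higher in lung P2 (median log2 -3.51, or -5.09 with 4 genes at their lower bounds). Over all genes at 20 CPM or more, 7.39% did so. Tbx2, a T-box gene of lung mesenchyme and capillaries, stood at 11.6, 692, 320 and 9.63 CPM, and Hoxa5 at 25.9, 161, 178 and 8.62 CPM, both crossed like Foxf1 (3.58, 63.9, 716 and 0.367 CPM). Tcf21, Tbx4 and Foxf2 were instead high in lung P2 alone. Among the crossed genes higher in lung P2 were also Mapt, a microtubule protein gene (0.894, 335, 315 and 2.45 CPM), and Ncald, a calcium sensor gene (3.58, 222, 221 and 14.4 CPM).

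The crossed genes on the other side included immediate early genes, which cells switch on within minutes of stress, tissue dissociation included. Of the 15 genes on that list 11 were at least 4-fold higher in the lung-labelled P1 library (median log2 2.42), 0 passed the other way, and 5 of the 11 had the crossed pattern. With the fat-labelled P1 library in its place 7 were at least 4-fold lower than in lung P2, none higher, and the median was -1.87. Over all genes at 20 CPM or more, 5.23% passed in the lung-labelled P1 library and 7.39% in lung P2. Fosb, an AP-1 subunit gene, stood at 923, 55.7, 6.30 and 1913 CPM, and Fos at 3721, 689, 27.0 and 5906 CPM. Socs3, which is not on the list and dampens cytokine signals, stood at 692, 27.1, 20.1 and 634 CPM. Fosb (ENSMUSG00000003545) lies on chromosome 7 from 19302696 to 19310051 and Socs3 (ENSMUSG00000053113) on chromosome 11 from 117966079 to 117970047. The lung-labelled P1 library and fat P2 are both high, lung P2 is between 27.1 and 689 CPM, and the fat-labelled P1 library is lowest in all 3. Egr1 (1348, 907, 24.9 and 2532 CPM) and Dusp1 (868, 1030, 275 and 1123 CPM) did not pass in the lung pair.

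The share of ribosomal protein genes was crossed in the same way. Ribosomal protein genes held 15.9% of UMIs in the lung-labelled P1 library and 4.64% in lung P2, against 4.35% in the fat-labelled P1 library and 13.6% in fat P2. Of 84 such genes at 50 CPM or more, 19 were at least 4-fold higher in the lung-labelled P1 library and 0 in lung P2. Over all genes at 50 CPM or more these shares were 8.45% and 11.8%. The nuclear RNA Malat1 was not crossed and stood at 13177, 65552, 51007 and 40894 CPM, lowest in the lung-labelled P1 library. Counting on totals without mitochondrial and ribosomal genes moved the median ratio of all genes by 0.16 and gave 483 and 543 called genes. Whether these values account for part of the crossed pattern was not tested.

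The crossed genes without a place on these lists had mixed roles. Ptn, a secreted growth factor gene, stood at 321, 4.64, 0 and 73.4 CPM. Procr, the protein C receptor gene, stood at 66.2, 2.32, 1.84 and 210 CPM, and Itm2a, a membrane protein gene, at 322, 32.7, 3.38 and 305 CPM. Cxcl1, a neutrophil-attracting chemokine gene, stood at 58.1, 1.03, 0 and 168 CPM. By the rule, the P1 and P2 labels of the lung pair and the fat pair point opposite ways in these 4.

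**Figure D4:**
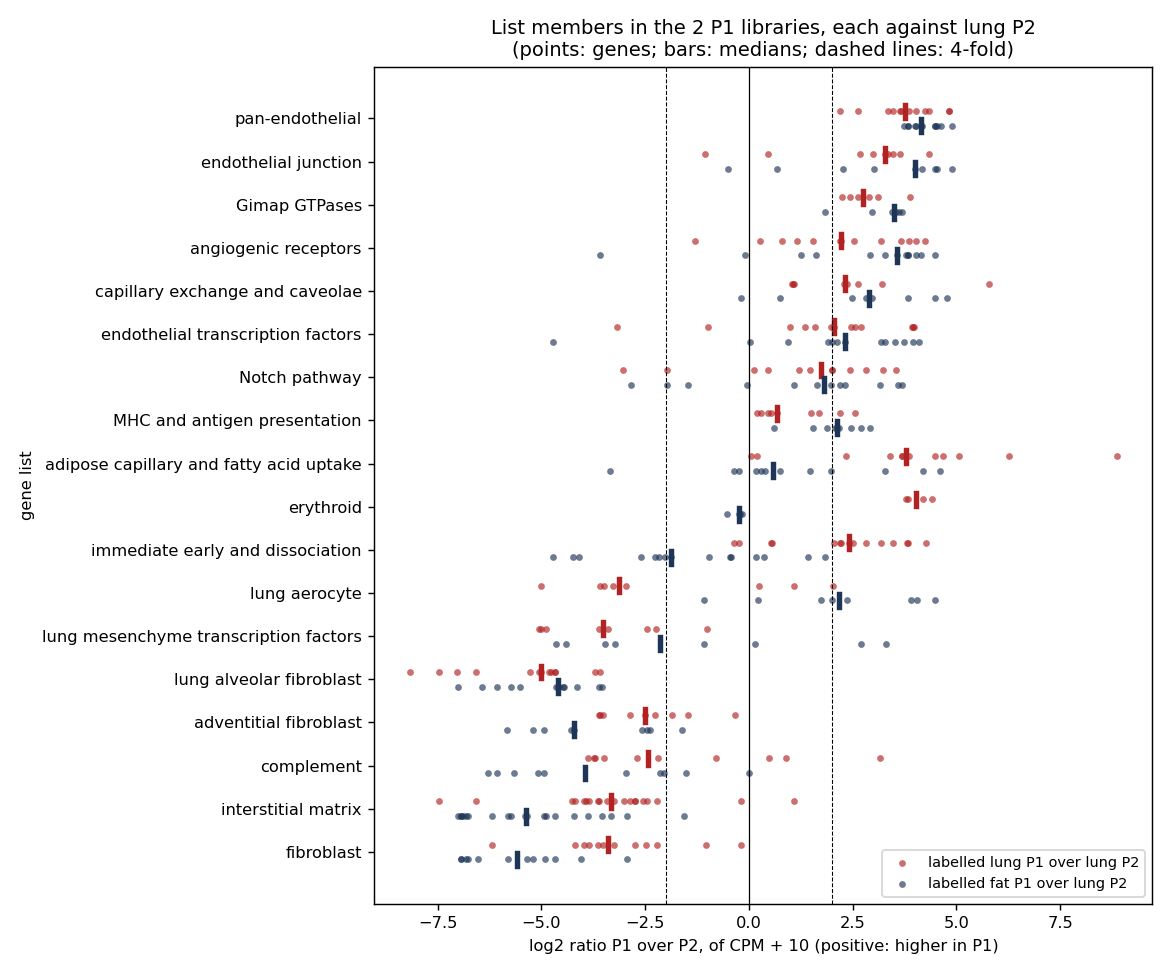
Log2 ratio over lung P2, after adding 10 CPM, of each list member in the lung-labelled P1 library (red) and in the fat-labelled P1 library (dark blue), with medians as bars and dashed lines at 4-fold. Both comparisons share lung P2. Endothelial lists are to the right and matrix lists to the left with either P1 library, while the adipose capillary, erythroid, immediate early and aerocyte medians move with the P1 library used.

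Ligands and receptors of vessel growth were divided between the 2 lung libraries. Of 17 measured angiogenic ligand genes 4 stood at least 4-fold higher in the lung-labelled P1 library and 7 in lung P2 (median log2 -1.27). Among all genes at 20 CPM or more, 5.23% and 7.39% did so. On the P1 side were Pdgfb, which recruits pericytes (299, 14.2, 318 and 0.252 CPM), Edn1, Vegfc and Cxcl12. On the P2 side were Angpt1, the activating ligand of Tie2 (0, 374, 6.76 and 21.7 CPM), Vegfd (5.36, 382, 6.14 and 85.9 CPM), Fgf7 (1.79, 166, 1.54 and 44.4 CPM), Fgf10, Fgf2, Hgf and Vegfa. Angpt1 was at least 139-fold higher in lung P2 while its receptor gene Tek was higher in the lung-labelled P1 library. Vegfa, the main endothelial growth factor gene, stood at 17, 306, 484 and 95.9 CPM, so it was low in the lung-labelled P1 library and not in the other P1 library.

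The PDGF pair showed the same arrangement. Pdgfra and Pdgfrb, the receptor genes, stood at 14.3 against 1752 and 25.0 against 162 CPM, both with the population pattern, and the ligand gene Pdgfb lay on the other side. For Pdgfra the sort itself selected this direction. In the Notch pathway 5 of 12 genes passed in the lung-labelled P1 library and 1 in lung P2 (median log2 1.74). Among all genes at 20 CPM or more these shares were 5.23% and 7.39%. The ligand genes Jag2 (156, 4.38, 61.9 and 0.321 CPM) and Dll4 (163, 8.51, 228 and 0.161 CPM) and the receptor gene Notch4 (104, 6.19, 134 and 0.459 CPM) had the population pattern. Heyl, a target gene of Notch in mural cells, was highest in lung P2 (1.79, 86.9, 3.53 and 7.04 CPM).

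BMP and TGF-beta genes passed for 3 of 15 in the lung-labelled P1 library and 4 in lung P2 (median log2 -0.84), against 5.23% and 7.39% of all genes at 20 CPM or more. Id1, a BMP target gene, and Tgfb1 were on the P1 side (637, 41.2, 354 and 6.35 CPM, and 252, 25.5, 136 and 13.8 CPM). Bmp5, with 0.894, 260, 1.69 and 5.14 CPM, Bmp4, Tgfb3 and Gdf10 were on the P2 side. Of 8 measured chemokine and cytokine genes 4 passed in the lung-labelled P1 library (Ccl21a, Cxcl9, Cxcl12 and Cxcl1) and 1, Cxcl14 (15.2, 670, 4.45 and 177 CPM), in lung P2 (median log2 2.25). Cxcl12, one of the 4 genes that varied between barcodes labelled lung P1, stood at 1032, 125, 600 and 260 CPM.

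A few class I antigen presentation and interferon genes were higher in the lung-labelled P1 library, where 5.23% of all genes at 20 CPM or more passed. Of 9 MHC genes 2, H2-D1 (2803, 466, 3589 and 1101 CPM) and H2-K1 (2240, 485, 3206 and 876 CPM), passed (median log2 0.67) and 7 did not. Of 12 interferon response genes 4 passed, none the other way (median log2 1.69). Isg15, a ubiquitin-like antiviral gene, stood at 156, 10.6, 75.1 and 69.6 CPM and Rsad2, which encodes viperin, at 136, 1.03, 19.8 and 15.3 CPM. Lung P2 has the lowest level in each of these 4 genes.

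Summed markers of mural cells, which wrap vessels, stood at 636 CPM in the lung-labelled P1 library and 891 CPM in lung P2. Of 9 measured mural markers 1 passed in the lung-labelled P1 library, Rgs5 (52.7 against 2.84 CPM), and 2 in lung P2, Abcc9 and Pdgfrb (median log2 -0.68), where 5.23% and 7.39% of all genes at 20 CPM or more passed. Acta2, the smooth muscle actin gene, stood at 188 and 208 CPM. In lung P2, 106 barcodes (7.38%) with 3 or more mural UMIs held 70.7% of the mural UMIs and its Acta2 variance ratio was 10.6, while that of the lung-labelled P1 library was 1.11. The 106 barcodes were chosen by these mural UMIs, so their share follows in part from the choice. Lyz2, from the monocyte or macrophage list, stood at 68.8 and 444 CPM, where the whole list summed to 110.85 and 458.5 CPM. Other members were near 0 in lung P2, with Cd68 at 0.773 and C1qa at 0.515 CPM. The log2 ratio of Lyz2, -2.53, became -0.32 without the marker barcodes of lung P2. Which cells its RNA came from was not tested. Among the T or NK cell, neutrophil, Schwann cell, muscle and proliferation lists no member reached 20 CPM in either lung library.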

How the data were processed

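RNA was counted in 4 droplet libraries of sorted mouse cells, 1 per tissue label and population, so each group has 1 library and no statistical test was made. The deposited matrices hold raw UMI counts per gene and barcode, which the authors made with Cell Ranger 3.1.0 on mm10, per the submitters' processing notes; the annotation release is not given in the sources used here. The 35 symbols shared by several IDs were summed (31053 entries to 31017 symbols). Barcodes with at least 1000 UMIs, 500 genes and at most 10% mitochondrial UMIs were summed per library and scaled to CPM, and log2 ratios were taken after adding 10 CPM. A gene was called at 4-fold among those that reached 50 CPM in either library, and list members counted as measured at 20 CPM. Intervals are exact Poisson for levels and exact Clopper-Pearson for shares, both at 95%, and a count of 0 was set to 3 UMIs of that library for lower bounds (2.68 CPM in the lung-labelled P1 library, 0.773 in lung P2). Depth was 1118642 UMIs in the lung-labelled P1 library and 3880015 in lung P2, so low levels are less precise in the former.

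Barcodes were thinned to 1000 UMIs for shares and variances. Doublets were left in, and an alternative removed the barcodes with the highest scrublet scores (scanpy), their number set at 0.8% per 1000 barcodes (3 in the lung-labelled P1 library, 16 in lung P2). The code for the calls and the variance ratio was checked on simulated data. Python 3.11.15 with numpy 2.4.6, scipy 1.17.1, pandas 2.3.3 and scanpy 1.11.5 was used, and edgeR 4.0.16 (TMM factors) and DESeq2 1.42.0 (size factors) in R 4.3.3 gave only alternative scalings of the counts. Coordinates of 447 of 447 list members and named genes were matched by ID to GENCODE vM21 (GRCm38). The members and the 15 marker lists and 31 gene groups were chosen with earlier results of these data known. Named by rule were the sort gate genes, the 10 genes per direction with the widest margin in each pattern (without mitochondrial, ribosomal and unnamed transcripts) and up to 4 members per list with the largest ratios. Every other gene was named after its values were seen. Not every gene that the rule picks is reported here. The 15 genes that met both the population and the single-library rule were counted under the former.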

Additional observations from a re-analysis of the deposited data

Results flagged for a closer look

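In the 20 genes that the naming rule took from the crossed tissue pattern, the pair labelled fat ran opposite to the lung pair. Other named genes, Hpgd and Fos among them, do so too and are not listed here. The difference between the pairs was not tested, since each group is 1 library, and the crossed tissue rule by which these genes were named itself fixes the opposite direction. The values are log2 ratios of the fat-labelled P1 library over fat P2. Among genes higher in lung P2 than in the lung-labelled P1 library, the ratio in the pair labelled fat was 6.21 for Sftpc, 5.51 for Ager, 5.43 for Emp2, 4.70 for Mapt, 4.57 for Adgrl3, 4.07 for Tbx2, 3.99 for Sftpa1, 3.32 for Shroom3, 3.24 for Ncald and 3.19 for Raver2. Among genes higher in the lung-labelled P1 library, it was -6.88 for Fosb, -4.84 for Atf3, -4.77 for Efhd1, -4.56 for Itm2a, -4.42 for Socs3, -4.22 for Procr, -4.15 for Cxcl1, -3.06 for Ptn, -3.03 for Gadd45g and -2.96 for Jund.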

How the results depend on the processing

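No paired analysis was possible because each group has 1 library. Over the alternatives run (scalings, added CPM, filters on barcodes and genes, doublets, all deposited barcodes, lung P2 without marker barcodes, other thinning depths), 309 to 499 genes stood at least 4-fold higher in the lung-labelled P1 library and 400 to 679 in lung P2. The crossed tissue count was 29 to 71, with 71 when 1 CPM was added, the population count 231 to 430 and the single-library count 213 to 302. Of the gene ratios recomputed, 1588 kept their direction and size within counting error, 531 moved and 29 reversed. For list medians, counted as kept within a shift of 0.5, these numbers were 353, 74 and 5. The totals include the fat-labelled P1 library set against lung P2, where 42 gene ratios were kept, 110 moved and 27 reversed. The alternative CPM minimums cannot move a ratio or a list median. Each adds 179 kept ratios and 36 kept medians. The share of barcodes with both endothelial and fibroblast markers was 58.5% in the lung-labelled P1 library and 1.03% in lung P2 at 2000 UMIs, which left 164 barcodes labelled lung P1, and 1.99% in the lung-labelled P1 library when 5 UMIs of each were asked. The median variance ratio of lung P2 was 1.40 over genes with a mean of 0.5 UMI or more.

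The epithelial median reversed to 0.11 at a limit of 5% mitochondrial UMIs and to 2.50 without the marker barcodes of lung P2. The epithelial list itself helped to choose those barcodes. Over all deposited barcodes Hba-a2 and Hbb-bt reversed to -0.017 and -0.85. All other reversals came from setting the fat-labelled P1 library against lung P2, where the medians, taken here over members measured in that pair and not over those measured in the lung pair, were -0.21 for erythroid, 2.90 for lung aerocyte and -1.87 for immediate early and dissociation genes. The log2 ratios there were 1.44 for Adgrl3, 1.17 for Ager, 0.039 for Antxr2, -0.45 for Atf3, -0.14 for Cxcl1, 1.73 for Emp2, -2.01 for Fosb, -0.063 for Gadd45g, -0.21 for Hba-a1, -0.53 for Hba-a2, -0.16 for Hbb-bs, -0.25 for Hbb-bt, 0.14 for Hoxa5, 4.05 for Hpgd, -2.67 for Hspg2, -1.68 for Itm2a, -0.43 for Jund, -0.18 for Ly6d, 0.22 for Pmp22, -0.057 for Procr, 1.10 for Ptgfrn, -0.55 for Ptn, 0.16 for Raver2, 1.17 for Scn7a, -0.057 for Selp, 3.62 for Sema3c and -0.30 for Socs3. The cause was not tested. Depth limits the lung-labelled P1 library most, where 3 UMIs are 2.68 CPM.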

Other observations

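Positional and retinoid genes had no common direction in the lung pair. Of 11 measured Hox genes 2 stood at least 4-fold higher in the lung-labelled P1 library and 1 in lung P2 (median log2 -0.34), where 5.23% and 7.39% of all genes at 20 CPM or more passed. Hoxd8 and Hoxd9, posterior members of the Hoxd cluster, stood at 57.2 and 40.2 CPM in the lung-labelled P1 library against 0 UMIs in lung P2, at least 74.0-fold and 52.0-fold higher, and Hoxa5, which patterns lung, went the other way. Fat P2 held 16 CPM of Hoxd8 and 3.99 CPM of Hoxd9, and the fat-labelled P1 library 0.307 and 0.614 CPM. Of 6 measured retinoid genes 1 passed in the lung-labelled P1 library, Rbp7, and 2 in lung P2, Aldh1a1 and Rbp4 (median log2 -0.78).

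Of 14 measured basement membrane genes 10 passed in neither direction, 1 passed in the lung-labelled P1 library and 3 in lung P2 (median log2 -0.59), beside the same 5.23% and 7.39% of all genes. Hspg2, which encodes perlecan, stood at 885 CPM in the lung-labelled P1 library, 195 in lung P2, 22.1 in the fat-labelled P1 library and 397 in fat P2. Lama2, a laminin chain gene, stood at 8.05, 256, 0.614 and 440 CPM, listed likewise, high in both P2 libraries.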
